A study of Mus musculus with 6 samples.

Results

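Acetyl-CoA supply and fatty acid synthesis was followed through 9 genes in the count table of PSB-KD107-treated mdx myoblasts. The genes were fixed by symbol, as Slc25a1, Acly, Acss2, Acaca, Acacb, Fasn, Me1, Mlxip and Mlxipl, in a choice made with earlier results of these data known. All 9 were among the 47069 genes of the table, and 8 passed the filter on low counts with 14165 genes in all. The exception was Mlxipl, which was nearly silent.

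Myoblasts derived from muscle stem cells of mdx mice, which lack dystrophin and model Duchenne muscular dystrophy, were given PSB-KD107, a synthetic agonist of the receptor Gpr18, at 10 μM, or vehicle. All cells of both groups were mdx, so there was no wild-type group. The study's sequencing methods name no medium. Its culture methods give serum and FGF2 for growing myoblasts and a low-serum medium for their differentiation. The sample records give 2 days of treatment and the study's methods give 16 h. There were 3 libraries per group, from cells of 3 mice per the methods, whose sex, background and age are not stated for the cells. For its experiments in animals the study used male C57BL/10 mdx mice aged 10 weeks. The libraries are numbered 1, 2 and 4 in the count table and 1, 2 and 3 in the sample records, and the numbers of the count table are used here.

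Cells build fatty acids in the cytosol from acetyl-CoA. Citrate leaves the mitochondrion through the citrate carrier (Slc25a1) and is split into acetyl-CoA by ATP citrate lyase (Acly), and acetate is converted to acetyl-CoA by acyl-CoA synthetase short-chain family member 2 (Acss2). Acetyl-CoA carboxylases (Acaca, mainly cytosolic, and Acacb, bound to the outer mitochondrial membrane) make malonyl-CoA, which fatty acid synthase (Fasn) extends to palmitate with NADPH, a part of which comes from malic enzyme (Me1). Malonyl-CoA from Acacb is known mainly as a brake on the entry of fatty acids into mitochondria in muscle. Mlxip (MondoA, the main form in muscle) and Mlxipl (ChREBP, the main form in liver and fat) encode transcription factors that sense glucose metabolites.

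Total counts ranged from 30917613 to 48756794 per library, and a floor of 3 counts was worth 0.0596 to 0.0962 CPM (counts scaled to the TMM-normalized total of the library), which covers counting error only. The labels do not tie a library to a mouse, so the p-values measure the spread between these libraries. The cells are labelled as satellite cells, and Pax7, which defines them, was at 26.8 to 68.8 CPM. They also held transcripts of differentiating muscle, such as 11842 to 18255 CPM of embryonic myosin Myh3. The summed level of the 5 measured markers of differentiating muscle was 27268 to 30652 CPM with vehicle and 21518 to 25498 CPM with PSB-KD107, without overlap. Myh3 carries this sum, and without it the ranges were 9300 to 12397 CPM and 8295 to 13656 CPM and overlapped. At an unadjusted p under 0.05, Myh3 and Myog were lower, whereas Ckm, Acta1 and Tnnt3 overlapped between the groups. Pax7 was lower with PSB-KD107 (log2 fold change −0.90, adjusted p = 0.209 in edgeR and 0.0019 in DESeq2). The groups overlapped for the other tested myoblast markers, Myod1, Myf5, Des, Itga7, Cdh15 and Vcam1. The sum over the 8 listed myoblast markers also overlapped, at 5888 to 6377 CPM with vehicle and 5827 to 5999 CPM with PSB-KD107. Markers of adipocytes, cells that express the genes of fatty acid synthesis at high levels, summed to 0.931 to 1.95 CPM and 0.165 to 2.57 CPM over 7 genes. Of these, Plin1 had 0 counts in every library and Adipoq had 1 count in all. Markers of fibroblasts (5 genes) summed to at most 9.90 CPM, of leukocytes (5 genes) to at most 6.50 CPM and of endothelium (4 genes) to at most 0.99 CPM in any library. The part of the muscle markers in the results that follow was not tested. Fewer cells of a type and less RNA per cell cannot be told apart in bulk samples.

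Gpr18, the receptor that PSB-KD107 targets, had 0 counts in each of the 6 libraries. At these depths a level up to the floor of each library could not be detected.

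Acly, Acss2, Acaca, Acacb and Fasn, from acetyl-CoA supply to palmitate, had higher levels in every PSB-KD107 library than in any vehicle library, by 1.68-fold for Acacb to 2.86-fold for Fasn. Slc25a1 had a fold change of 2.11 with overlapping groups, and Me1 and Mlxip had fold changes of 1.15 and 1.01. All 8 tested genes had a fold change above 1 in edgeR, that of Mlxip with a sign that differed between alternatives, with a median log2 fold change of 1.05, against −0.00074 for all 14165 genes. In edgeR's quasi-likelihood test, 5 of the 8 (Acly, Acss2, Acaca, Acacb and Fasn) were higher at an unadjusted p under 0.05, where 6.47% of all genes were higher and 2.93% were lower. None of the 8 had an adjusted p under 0.05 in edgeR, and 0% of all genes did. DESeq2 called 4 of the 8, all higher (Acss2, Acaca, Fasn and Acacb), where it called 2.1% of 14719 genes as higher and 0.666% as lower. In 5 of the 8 the 3 PSB-KD107 libraries lay above the 3 vehicle libraries, against 9.2% of genes above and 6.59% below. The smallest p of an exact permutation test of 3 libraries against 3 is 0.1, which these 5 genes reached, so this test could not pass 0.05.

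**Figure D1:**
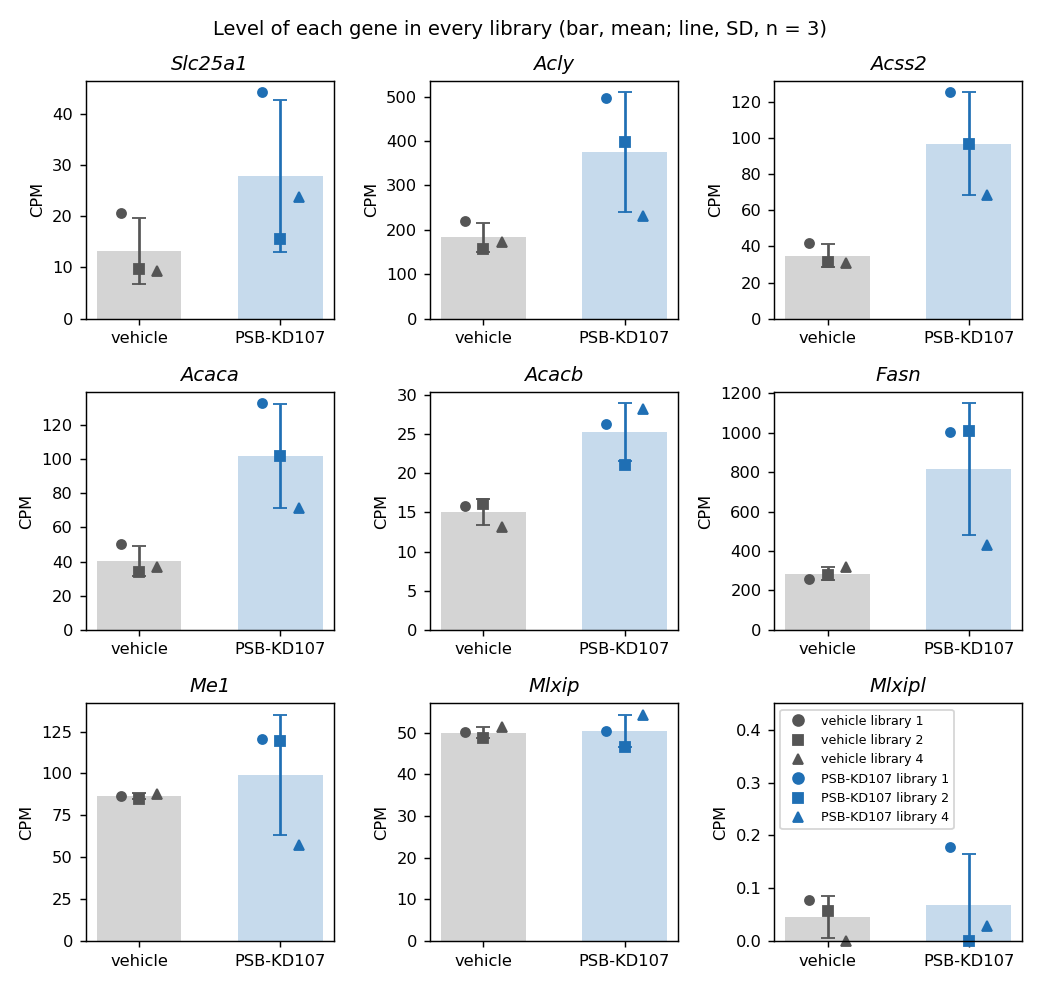
CPM (TMM-normalized counts, linear axis from 0) of each of the 9 genes in every library, with vehicle in grey and PSB-KD107 in blue. Bars are means, lines are SDs over 3 libraries, and the symbol gives the library number. All PSB-KD107 points lie above all vehicle points for Acly, Acss2, Acaca, Acacb and Fasn, and PSB-KD107 library 4 (triangle) is the lowest treated library for Acly, Acss2, Acaca, Fasn and Me1.

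Citrate export is represented here only by the transcript level of Slc25a1, which lies on chromosome 16 from 17925223 to 17928219 (GRCm38, minus strand). It had 20.7, 9.68 and 9.21 CPM in vehicle libraries 1, 2 and 4 and 44.2, 15.5 and 23.8 CPM in PSB-KD107 libraries 1, 2 and 4. Vehicle library 1 was above PSB-KD107 library 2, so the groups overlapped. The log2 fold change was 1.08 ± 0.49 (standard error), with an adjusted p of 0.587 in edgeR. It was 0.56 without PSB-KD107 library 1 and 1.56 without vehicle library 1, and of the 6 libraries left out in turn DESeq2 called the gene only in the latter case (adjusted p = 0.0325).

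Acly, on chromosome 11 from 100476353 to 100528000 (minus strand), had 220.3, 157.4 and 173.4 CPM with vehicle and 495.9, 398.6 and 230.0 CPM with PSB-KD107. The groups did not overlap, but PSB-KD107 library 4 was close to vehicle library 1. Means were 183.7 ± 32.7 and 374.8 ± 134.5 CPM (SD, n = 3), and the log2 fold change was 1.03 ± 0.30 (standard error), with an adjusted p of 0.378 in edgeR. Whether DESeq2 called Acly depended on the genes given to it, with an adjusted p of 0.055 over the whole table and 0.0429 over the genes that passed the filter on low counts, the latter an alternative chosen after seeing the data. With 1 library left out, DESeq2 called it without vehicle library 1 (adjusted p = 0.0331) and without PSB-KD107 library 4 (2.95e-06), but in none of the 4 other cases.

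Acss2 lies on chromosome 2 from 155517948 to 155585724 (plus strand). It had 42.2, 31.6 and 30.6 CPM with vehicle and 125.3, 96.8 and 68.4 CPM with PSB-KD107, so that the lowest treated library was well above the highest vehicle library. The log2 fold change was 1.48 ± 0.25 (standard error), with an adjusted p of 0.184 in edgeR and 6.5e-05 in DESeq2. Among the 8 genes it was the one that DESeq2 called with each of the 6 libraries left out (adjusted p from 1.6e-09 to 0.0134). Its locus overlaps Gss and Ggt7 on the other strand, which held 7540 and 1581 counts in all libraries beside 15547 for Acss2. The strand setting of the counting is not given in the sources used here, so a share of reads from these genes cannot be told apart.

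Transcripts of the citrate route (Acly) and the acetate route (Acss2) were compared as a ratio within each library. The flow through either route was not measured. Any reads of Gss or Ggt7 counted for Acss2 would also enter this ratio. Per kilobase of exon, Acly counts were 10.1, 9.58 and 10.9 times the Acss2 counts in vehicle libraries 1, 2 and 4, and 7.62, 7.93 and 6.48 times in PSB-KD107 libraries 1, 2 and 4. The log2 ratio was lower by 0.48 with PSB-KD107 (−0.48, from 3.35 ± 0.09 to 2.87 ± 0.15, SD, n = 3), without overlap between the groups (exact permutation test, two-sided, p = 0.1, the smallest that the design allows). Acly transcripts were more abundant than Acss2 transcripts in every library. The size of the ratio depends on the exon lengths used (5279 bases for Acly and 10163 for Acss2), whereas its difference between the groups does not.

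**Figure D2:**
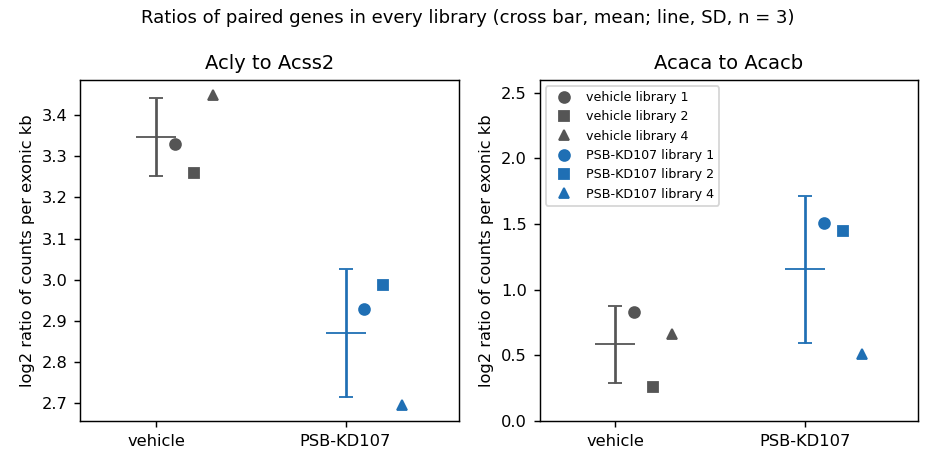
Log2 ratio of counts per exonic kilobase of Acly to Acss2 (left) and of Acaca to Acacb (right) in each library, with vehicle in grey and PSB-KD107 in blue. The 2 axes do not start at the same value, cross bars are means and lines are SDs over 3 libraries. The Acly to Acss2 ratios of the groups do not overlap, whereas the Acaca to Acacb ratio of PSB-KD107 library 4 lies among the vehicle values.

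The carboxylase genes were both higher. Acaca, on chromosome 11 from 84129672 to 84401651 (plus strand), had 50.1, 34.1 and 36.8 CPM with vehicle and 132.7, 101.9 and 71.4 CPM with PSB-KD107, without overlap. The log2 fold change was 1.34 ± 0.26 (standard error), with an adjusted p of 0.228 in edgeR and 0.00095 in DESeq2. DESeq2 no longer called it without vehicle library 2 (adjusted p = 0.0541).

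Acacb, on chromosome 5 from 114146535 to 114250761 (plus strand), had 15.9, 16.1 and 13.1 CPM with vehicle and 26.3, 21.1 and 28.2 CPM with PSB-KD107. Here PSB-KD107 library 4 was the highest of the treated libraries, and the groups did not overlap. The log2 fold change was 0.75 ± 0.17 (standard error), with an adjusted p of 0.253 in edgeR and 0.0121 in DESeq2. DESeq2 did not call it without vehicle library 2 (adjusted p = 0.101), vehicle library 4 (0.17) or PSB-KD107 library 1 (0.102).

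The ratio of Acaca to Acacb counts per kilobase was 1.78, 1.20 and 1.58 with vehicle and 2.84, 2.72 and 1.43 with PSB-KD107. The log2 ratio was higher by 0.57 on average, but PSB-KD107 library 4 lay within the range of the vehicle libraries (exact permutation test, two-sided, p = 0.3).

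Fasn, on chromosome 11 from 120805846 to 120824547 (minus strand), had the highest log2 fold change of the 8 over all 6 libraries, close to that of Acss2. It had 257.1, 277.4 and 320.9 CPM with vehicle and 1005.1, 1010.4 and 429.5 CPM with PSB-KD107. All treated libraries were above all vehicle libraries, but libraries 1 and 2 were far above library 4. Means were 285.1 ± 32.6 and 815.0 ± 333.8 CPM (SD, n = 3), and the log2 fold change was 1.52 ± 0.34 (standard error). The adjusted p was 0.255 in edgeR and 0.0021 in DESeq2. Without PSB-KD107 library 4 the log2 fold change was 1.82 (adjusted p = 0.0782 in edgeR), and DESeq2 no longer called Fasn without vehicle library 2 (adjusted p = 0.075).

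Me1, on chromosome 9 from 86581371 to 86695953 (minus strand), had 86.8, 84.7 and 88.0 CPM with vehicle and 120.5, 119.3 and 57.6 CPM with PSB-KD107. Libraries 1 and 2 of the treated group were above all vehicle libraries and library 4 was below all of them. The difference between the groups was 0.20 ± 0.28 on the log2 scale (standard error), with an adjusted p of 0.854 in edgeR, and was smaller than the spread between the treated libraries. It was 0.47 without PSB-KD107 library 4 (adjusted p = 0.157 in edgeR and 6.1e-05 in DESeq2) and 0.01 without PSB-KD107 library 1.

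**Figure D3:**
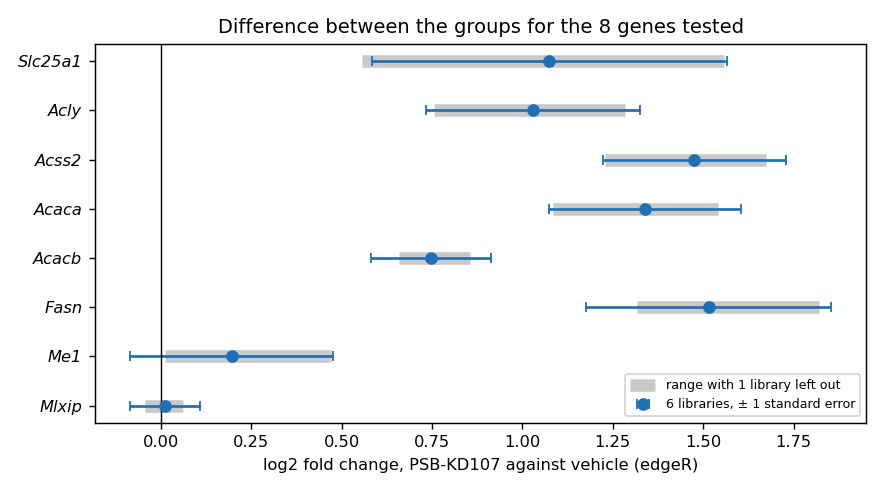
Log2 fold change of PSB-KD107 against vehicle for the 8 genes tested in edgeR, with points for all 6 libraries, lines of 1 standard error to each side, and grey bands for the range with each library left out in turn. Slc25a1 to Fasn stay above 0, from 0.56 for Slc25a1 to 1.82 for Fasn, and the band of Mlxip spans 0.

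No difference was detected in the glucose-sensing factors. Mlxip, on chromosome 5 from 123394798 to 123457932 (plus strand), had 50.1, 48.8 and 51.3 CPM with vehicle and 50.6, 46.6 and 54.4 CPM with PSB-KD107. The difference was 0.01 ± 0.10 on the log2 scale (standard error), with an adjusted p of 0.977 in edgeR, and it took either sign across the alternatives. Mlxipl, on chromosome 5 from 135089890 to 135138382 (plus strand), had 3, 2 and 0 counts with vehicle and 9, 0 and 1 counts with PSB-KD107. These levels were at or near the floor of 3 counts, so no fold change is given. Of the pair, Mlxip was the form above the floor in every library, at 6.02 FPKM (CPM per kilobase of exon) with vehicle.

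In order of FPKM with vehicle, Acly (34.8 ± 6.19, SD, n = 3), Fasn (26.1 ± 2.98) and Me1 (22.5 ± 0.43) stood highest. Their vehicle libraries did not overlap, with 29.8 to 41.7 FPKM of Acly, 23.5 to 29.3 of Fasn and 22.01 to 22.86 of Me1. Slc25a1 (6.10 ± 3.01) and Mlxip (6.02 ± 0.15) followed with overlapping libraries, ahead of Acss2 (3.42 ± 0.63), Acaca (2.36 ± 0.50) and Acacb (1.56 ± 0.17), whose libraries did not overlap with those of their neighbours in this order. The order and the percentiles below depend on the length used, the union of all annotated exons of a gene. It was 10163 bases for Acss2 and 2164 for Slc25a1. In CPM with vehicle, Acss2 (34.8 ± 6.40) stood above Slc25a1 (13.2 ± 6.51). With PSB-KD107, Fasn (74.5 ± 30.5 FPKM) and Acly (71.0 ± 25.5 FPKM) ranked at percentiles 95.9 and 95.7 of the genes tested, beside 86.7 and 90.2 with vehicle. Acss2 ranked at percentile 44.0 with vehicle and 66.2 with PSB-KD107, and Acaca at 37.2 and 55.0. Fasn alone made up 20.95% to 28.7% of the summed FPKM of the 9 genes in the vehicle libraries and 30.4% to 40.3% in the PSB-KD107 libraries.

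The spread between libraries of a group was shared by some genes and not by others. As a description over 6 libraries, which share depth and scaling, the deviations of log2 CPM from the group means had a Pearson correlation of 0.99 for Acss2 and Acaca, 0.98 for Acly and Acaca, and 0.98 for Me1 and Fasn. Acacb differed from this pattern, with a correlation of −0.66 with Fasn and −0.12 with Acaca. Slc25a1 and Fasn had a correlation of −0.04.

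**Figure D4:**
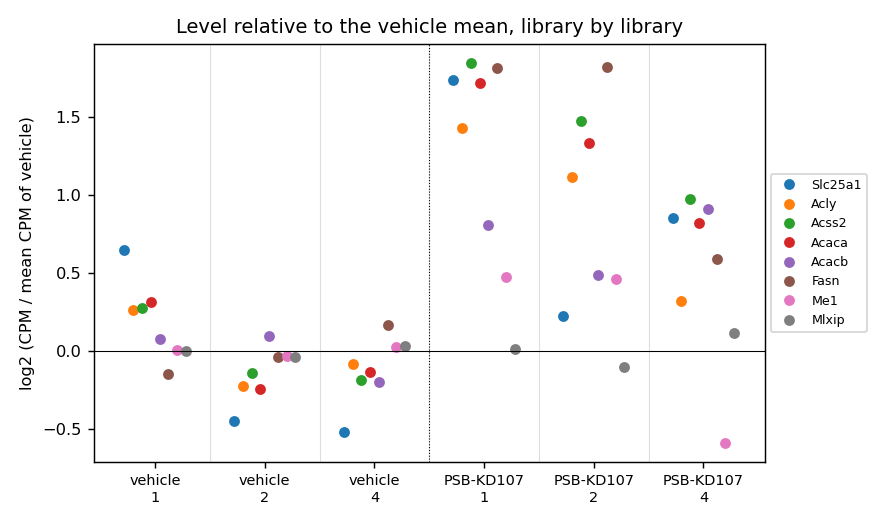
Log2 of the CPM relative to the mean CPM of the vehicle libraries for the 8 genes tested (colour), in each of the 6 libraries. PSB-KD107 library 4 shows lower values than libraries 1 and 2 for Acly, Acss2, Acaca, Fasn and Me1, but not for Acacb, and Mlxip stays near 0 in all libraries.

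The genes whose profile was most like that of the pathway were taken as the 5 other tested genes with the highest Pearson correlation, over 6 libraries, with the mean standardized log2 CPM of Slc25a1, Acly, Acss2, Acaca and Fasn. They were Neu1 (0.997), a lysosomal sialidase, Gpnmb (0.997), a transmembrane glycoprotein, Hsd17b12 (0.995), which acts in the elongation of long-chain fatty acids, Rad9a (0.992), which acts in the DNA damage checkpoint, and Ptprm (0.989), a receptor tyrosine phosphatase. Hsd17b12 had 78.2, 68.2 and 67.5 CPM with vehicle and 151.4, 126.6 and 95.5 CPM with PSB-KD107, without overlap. On the same measure, Acacb had a correlation of 0.80, Me1 of 0.50 and Mlxip of −0.11 with this mean. The difference between the groups was not taken out here, and the 5 were the top of all other tested genes. Their high correlations follow in part from this choice and are a description only.

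The stretches before the starts of Slc25a1, Acly, Acss2 and Fasn are shown because they belong to citrate export, both ways to acetyl-CoA and the synthase. They were read from RefSeq promoters on GRCm38.p6, 5′ to 3′ on the strand of the gene, and cover the 250 bases before the start (for Acss2 the 155 bases from −250 to −96 that lie outside annotated exons). Capitals mark CCAAT and its reverse complement ATTGG, and GGGCGG and its reverse complement CCGCCC.
Slc25a1, chr16:17928220-17928469, minus strand: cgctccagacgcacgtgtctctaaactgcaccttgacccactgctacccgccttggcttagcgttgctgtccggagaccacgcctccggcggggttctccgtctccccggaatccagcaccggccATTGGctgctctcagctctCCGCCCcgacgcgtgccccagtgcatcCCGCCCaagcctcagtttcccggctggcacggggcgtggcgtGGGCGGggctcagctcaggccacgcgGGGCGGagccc
Acly, chr11:100528001-100528250, minus strand: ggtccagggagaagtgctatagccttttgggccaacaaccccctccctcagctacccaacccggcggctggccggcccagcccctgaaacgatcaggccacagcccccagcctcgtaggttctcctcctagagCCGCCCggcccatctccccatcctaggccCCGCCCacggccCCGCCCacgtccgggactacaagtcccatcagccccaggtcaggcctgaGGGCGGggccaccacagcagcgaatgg
Acss2, chr2:155517793-155517947, plus strand: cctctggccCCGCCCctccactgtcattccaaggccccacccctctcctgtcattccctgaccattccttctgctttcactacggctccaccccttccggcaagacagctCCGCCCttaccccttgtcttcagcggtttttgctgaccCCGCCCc
Fasn, chr11:120824548-120824797, minus strand: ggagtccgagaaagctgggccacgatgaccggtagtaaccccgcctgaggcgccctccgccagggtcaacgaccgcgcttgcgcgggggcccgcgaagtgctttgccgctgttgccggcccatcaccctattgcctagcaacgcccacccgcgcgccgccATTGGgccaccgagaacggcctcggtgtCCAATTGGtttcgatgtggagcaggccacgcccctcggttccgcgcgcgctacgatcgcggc

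All 9 genes had an entry in the RefSeq promoters, and Me1 and Mlxipl had 2 starts each. Both strands of the 250 bases were searched for 7 strings of letters over 32851 starts. CCAAT was found in 33.8% of starts, GGGCGG in 32.7% and the E-box CACGTG in 6.02%. The sterol element was searched as TCACNCCAC (1.05% of starts), as its shorter forms TCACNCCA (3.67%) and TCACNCC (13.4%), which the longer form contains, and as TCACCCNA (3.24%), a string chosen after the Fasn sequence had been read. The Fasn stretch held 3 CCAAT matches, of which a pair overlaps in CCAATTGG, and no GGGCGG match. Acly held 4 GGGCGG matches and no CCAAT match. Slc25a1 held 1 CCAAT and 4 GGGCGG matches and 1 E-box, and Acss2 held 1 CCAAT match (at −73, outside the stretch shown) and 4 GGGCGG matches. Me1 held 3 GGGCGG matches at 1 start and 1 CCAAT match at the other, and Mlxip held 2 CCAAT and 2 GGGCGG matches. Mlxipl held 1 CCAAT match, 2 GGGCGG matches and 1 E-box, all at the same start. Acacb held 1 CCAAT match, and Acaca held none of these strings. TCACNCCAC and its shorter forms matched at 1 of the 2 starts of Mlxipl and at no other start searched for the 9 genes, whereas TCACCCNA matched at −128 of Fasn and −31 of Acss2. For Acaca and Acacb the only bases searched (chr11:84195188-84195437 and chr5:114165268-114165517) lie inside the gene spans given above. The bases before those spans were not searched. The Mlxipl bases with the TCACNCCAC match (chr5:135106641-135106890) also lie inside the span of Mlxipl. Its other start, with the bases just before that span, had no such match. For Me1, 1 of the 2 starts (chr9:86687278-86687527) lies inside the span too. All matches are strings in a window and were not measured as binding sites.

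Genes around the pathway were read from 7 lists with 100 genes, and edgeR called none of them at an adjusted p under 0.05. Their counts at an unadjusted p under 0.05 over all 6 libraries stand beside shares of 6.47% higher and 2.93% lower over all genes tested. The count of every list took another value in some fits with 1 library left out. The shares over all genes in those fits are not given here. Use of palmitate (desaturases, elongases, acyl-CoA synthetases, the acyltransferase Gpam and the fatty acid binding proteins Fabp3 and Fabp5) had the highest median of the 7 lists, at 0.67 over 11 tested genes, against −0.00074 for all genes. At an unadjusted p under 0.05, 7 of these 11 were higher and none was lower, and the count was 3 without PSB-KD107 library 1 or vehicle library 2 and 4 without PSB-KD107 library 2 or vehicle library 4. The smallest p-values belonged to Acsl3, which activates fatty acids (log2 fold change 0.65, adjusted p = 0.196 in edgeR and 5.9e-04 in DESeq2), Acsl5 with the same function (0.82, adjusted p = 0.283 and 0.021) and the elongase Elovl5 (0.67, adjusted p = 0.319 and 0.068). Log2 fold changes in the list ranged from −0.09 to 2.40. The largest was that of the desaturase Scd1 (adjusted p = 0.467 in edgeR and 0.0403 in DESeq2).

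Other acetyl-CoA supply had a median of 0.20 over 23 tested genes, with 3 higher and 0 lower at an unadjusted p under 0.05, and a count of 7 without PSB-KD107 library 2 and 5 without PSB-KD107 library 4. Slc16a1, a carrier of lactate and pyruvate, had 51.8, 71.5 and 69.0 CPM with vehicle and 100.0, 116.7 and 117.6 CPM with PSB-KD107 (log2 fold change 0.80, adjusted p = 0.212 in edgeR and 0.0042 in DESeq2). Pdk4, a kinase that inhibits pyruvate dehydrogenase, had a log2 fold change of 0.78, and Pdp2, a phosphatase that activates it, had one of 1.03. DESeq2 called both as higher (adjusted p = 0.0209 and 0.0128). The carboxylase partners and malonyl-CoA turnover had a median of 0.15 over 12 genes, with 1 gene higher and 0 lower. The median was 0.03 without PSB-KD107 library 1, 0.08 without PSB-KD107 library 2 and 0.10 without vehicle library 1, and the count was 2 without vehicle library 1, PSB-KD107 library 1 or PSB-KD107 library 4. The gene was Mid1ip1, whose product promotes the polymerization of acetyl-CoA carboxylase (log2 fold change 1.20, adjusted p = 0.381 in edgeR and 0.048 in DESeq2).

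NADPH supply had a median of 0.34 over 19 genes, with 2 higher and 1 lower at an unadjusted p under 0.05, near the shares over all genes. The count of 3 became 7 without vehicle library 1 and 5 without PSB-KD107 library 4. Aldh1l2, a mitochondrial enzyme of folate metabolism, had 19.9, 14.3 and 8.996 CPM with vehicle and 78.7, 42.1 and 53.5 CPM with PSB-KD107 (log2 fold change 2.01, adjusted p = 0.199 in edgeR and 2.6e-05 in DESeq2). Mthfd2, of the same mitochondrial folate pathway, had a log2 fold change of 1.00 (adjusted p = 0.409 in edgeR), and Idh2, the mitochondrial isocitrate dehydrogenase, one of −0.31 (adjusted p = 0.346). Mitochondrial fatty acid synthesis, a separate pathway that makes the lipoic acid precursor, had a median of 0.02 over 8 tested genes, with 0 of 8 at an unadjusted p under 0.05 in edgeR (1 without PSB-KD107 library 2) and 0 called by DESeq2.

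**Figure D5:**
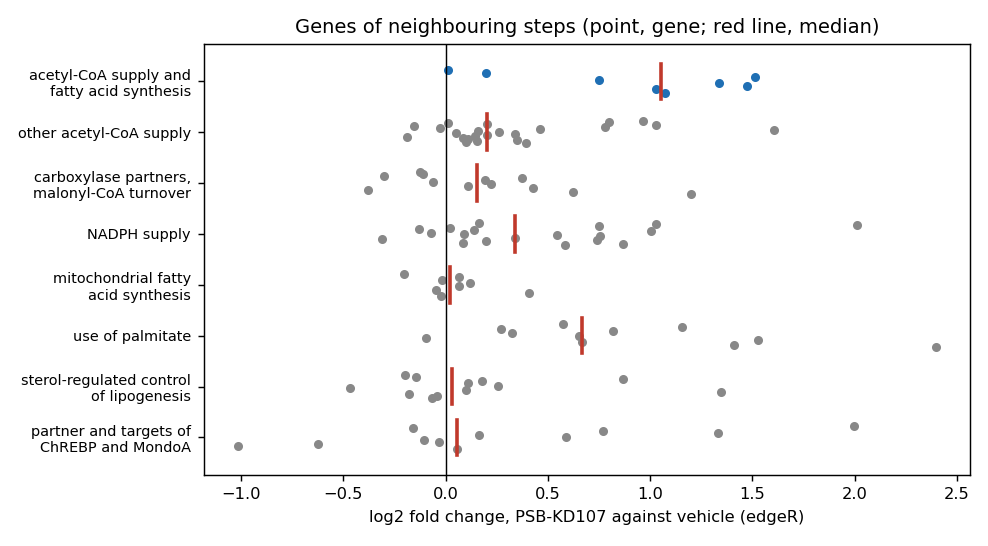
Log2 fold change in edgeR of each tested gene (point) of the pathway (blue) and of 7 lists around it (grey), with the median of each in red. The pathway has the highest median (1.05), followed by use of palmitate (0.67) and NADPH supply (0.34), and the other medians lie between 0.02 and 0.20.

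The sterol-regulated control of lipogenesis had a median of 0.03 over 12 genes, with 3 higher and 1 lower at an unadjusted p under 0.05, and a count of 2 without PSB-KD107 library 1, vehicle library 2 or vehicle library 4. Srebf1, which encodes the factor known to drive fatty acid synthesis genes, had 105.0, 80.4 and 84.8 CPM with vehicle and 83.3, 82.8 and 92.4 CPM with PSB-KD107 (a difference of −0.06 ± 0.13 on the log2 scale, adjusted p = 0.898 in edgeR). Lpin1, a phosphatidate phosphatase, had a log2 fold change of 0.87 (adjusted p = 0.238 in edgeR and 0.0091 in DESeq2). Insig1, which retains the sterol sensor in the endoplasmic reticulum, had one of 1.35 (adjusted p = 0.467 in edgeR and 0.112 in DESeq2), with overlapping groups. The proteases of SREBP, Mbtps2 and Mbtps1, had log2 fold changes of 0.26 (adjusted p = 0.488) and −0.47 (adjusted p = 0.374).

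The partner and targets of ChREBP and MondoA had a median of 0.05 over 11 tested genes, with 2 higher and 1 lower at an unadjusted p under 0.05, and a count of 1 without PSB-KD107 library 4 or vehicle library 2. Txnip, which restrains glucose uptake, had 71.8, 67.2 and 54.4 CPM with vehicle and 39.4, 28.2 and 28.1 CPM with PSB-KD107, all below the vehicle libraries (log2 fold change −1.01, adjusted p = 0.202 in edgeR). DESeq2 called Txnip as lower (adjusted p = 6.1e-04). Hk2, a hexokinase, and Slc2a1, a glucose transporter, had log2 fold changes of 2.00 (adjusted p = 0.415 in edgeR and 0.0254 in DESeq2) and 1.33 (0.417 and 0.0693), and the groups overlapped for both.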

How the data were processed

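RNA of mdx myoblasts given vehicle or PSB-KD107 was sequenced by the authors as polyadenylated, paired-end libraries and aligned with STAR to mm10. The authors deposited raw counts per gene, with no normalization. The counting program, its annotation and its strand setting are not given in the sources used here. All columns of the table were used.

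Counts were analysed in R 4.3.3 with edgeR 4.0.16 (filterByExpr, TMM factors, quasi-likelihood test in its default form) over 14165 genes, with Benjamini-Hochberg adjustment and a threshold of 0.05. DESeq2 1.42.0 was run on the whole table, and limma 3.58.1 (voom) was a further alternative. Python 3.11.15 with pandas 2.3.3 made the tables. Standard errors from edgeR were derived from the log2 fold change and its F statistic. CPM used TMM-scaled totals, and FPKM used the union of the annotated exons of each gene in GENCODE M21 (GRCm38), which holds 46488 of the genes. Ratios had 0.5 counts added to each gene. Scripts were tested on simulated counts.

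The 9 genes and the 7 lists were chosen with earlier results of these data known. The genes named were the 9, at most 3 per list and direction with the smallest p-values among those under 0.05, the 5 most similar genes, and Gpr18. Srebf1, Scd1 and the markers given with values were named after their values were seen. Alternatives were RLE factors, no filter, a mean FPKM of at least 1, DESeq2, limma-voom, the newer quasi-likelihood form, replicate blocks, 2 counts added in ratios, and each library left out. DESeq2 with each library left out or on other sets of genes, overlap of groups with a library left out, and the muscle markers without Myh3 were added after seeing the data.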

Additional observations from a re-analysis of the deposited data

How the results depend on the processing

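Over the alternatives run, the number of the 8 genes at an unadjusted p under 0.05 was 5 to 7. The 7 came from the replicate block on libraries numbered 1 and 2, with 2456 genes called, and DESeq2 without PSB-KD107 library 4, with 670. The share of all genes at an unadjusted p under 0.05 in each alternative is not given here. This number, and that of use of palmitate below, therefore have no baseline beside them. The median log2 fold change of the 8 genes was 0.73 to 1.31, with the lowest value without PSB-KD107 library 1 and the highest without vehicle library 1. The number of the 8 genes whose groups did not overlap was 5 or 6 with a library left out. Non-overlap is easier to reach with fewer libraries in a group. The share over all genes in these cases is not given here, so the number has no baseline beside it. The medians of mitochondrial fatty acid synthesis (−0.017 to 0.028), of the sterol-regulated control (−0.045 to 0.070) and of the ChREBP and MondoA list (−0.071 to 0.15) took either sign, that of use of palmitate lay between 0.63 and 0.95, and its number of genes at an unadjusted p under 0.05 between 3 and 10. The log2 ratio of Acly to Acss2 lay between −0.53 and −0.39 with a library left out, and that of Acaca to Acacb between 0.40 and 0.89. Genes called at an adjusted p under 0.05, 0 in edgeR, were 8 with no filter on low counts and 407 in DESeq2 on the whole table or on the rows with a count. They were 480 in DESeq2 on the genes kept by the filter, which also called Acly. DESeq2 called 613, 175 and 164 genes without vehicle library 1, 2 and 4, and 277, 763 and 670 without PSB-KD107 library 1, 2 and 4, and it called between 1 and 6 of the 8 genes in these cases. The cause was not tested. edgeR called 0 genes with each library left out. Mlxip, near 0 in all fits, was at −0.0013 with RLE factors, −0.00087 in DESeq2 on the genes kept by the filter, −0.027 with libraries 1 and 2 alone, and between −0.045 and 0.061 in edgeR with each library left out (−0.0032 without PSB-KD107 library 1, −0.015 without vehicle library 2). In DESeq2 it was −7.9e-05, −0.024 and −0.058 without vehicle library 1, vehicle library 2 and PSB-KD107 library 4. The log2 ratio of Mlxip to Mlxipl (−0.10, exact permutation p = 0.9) ranged from −0.86 to 0.85 with a library left out (0.70 without vehicle library 4, 0.85 without PSB-KD107 library 1), as it rests on the few counts of Mlxipl.

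The replicate numbers are shared by the groups, but the correlation, over 14165 genes, of the deviations from the group means in the 3 same-numbered pairs was 0.63 (1), 0.50 (2) and −0.13 (4), and vehicle library 4 correlated best with PSB-KD107 library 2 (0.64). Vehicle library 1 with PSB-KD107 library 2 gave −0.70, and vehicle library 2 with PSB-KD107 library 1 gave −0.51. The labels do not pair the libraries, and these correlations do not settle whether same-numbered libraries share a mouse. A replicate block on the libraries numbered 1 and 2 gave 2456 genes called, 7 of the 8 genes among them, where the same 4 libraries without it gave 0, and Mlxip was at −0.028 under this block. The replicate block over all 6 libraries gave 0 genes called.

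At these depths a level of 3 counts or fewer in a library, as for Gpr18 in all 6 and for Mlxipl in 5 of 6 (9 counts in PSB-KD107 library 1), cannot be told from 0.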
